A study of Rattus norvegicus with 12 samples.

Results

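The genes of the cardiac sarcomere and its Z-disc were examined in the left ventricle of rats that overexpress VEGF-B in cardiomyocytes. The set was a list of 43 gene symbols, and every array probe whose gene carried one of these symbols was taken, without regard to its signal. Of the 43 symbols, 31 had at least 1 probe (32 probes), out of 13336 named genes on the array. Myl4, Tpm2, Neb, Nebl, Ttn, Myom1, Tcap, Myopn, Synpo2l, Murc, Xirp1 and Xirp2 had no probe under that symbol. The probes of Mylk3 and Tnni1 and 1 of the 2 probes of Unc45b were too dim to be tested, so that 29 genes with 1 probe each remained, and all 29 were detected on all 12 arrays.

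The study compared 6 VEGF-B TG rats with 6 WT rats, which the labels call littermates, and hybridized left ventricular total RNA of each heart to its own Illumina bead array. All 12 animals were males of the outbred Wistar stock HsdBrl:WH aged 2 months, and the TG rats carried VEGF-B behind the αMHC promoter, which is itself the promoter of a sarcomere gene, the α-myosin heavy chain gene Myh6. How many founder lines were used is not given in the sources used here. The rat Vegfb probe lay between 5.99 and 8.58 on the log2 scale in TG hearts and between 6.42 and 10.1 in WT hearts (log2 difference -1.04, SE 0.58, limma adjusted p = 0.227), but whether this probe reads the transgene is unknown, so it is no check of the labels. Between 8452 and 9655 probes were detected per array. Precision is limited by the number of arrays.

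The sarcomere is the contractile unit of striated muscle, in which thick filaments of myosin pull on thin filaments of actin that carry troponin and tropomyosin. Titin spans from the M-band, where thick filaments are cross-linked, to the Z-disc, where thin filaments of neighbouring sarcomeres are anchored by α-actinin. The Z-disc also holds LIM domain proteins and calcineurin-binding proteins known from mechanical signalling in heart muscle, and desmin filaments tie the Z-discs to each other and to the intercalated disc.

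The members that passed the test were all lower in TG hearts. They included the Z-disc LIM protein genes Fhl2, Pdlim3 and Csrp3, the ventricular light chain gene Myl2, the M-band gene Myom2 and the thin filament elongation gene Lmod2. On the linear scale Myoz2 fell by 15.1%, Fhl2 fell by 25.5% and Mypn, which was read by a dim probe, fell by 27.7%. The main contractile genes of the thin filament, Tnnt2, Tnni3, Tnnc1 and Tpm1, had log2 differences between -0.09 and 0.10, none of which passed the test.

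Of the 29 tested probes, 10 were lower and 0 higher in TG hearts at an adjusted p under 0.05 (limma, Benjamini-Hochberg over all tested probes), which was 34.5% of the members. Among all 9054 tested probes 21.9% passed this threshold, 10.3% as lower and 11.6% as higher. At an unadjusted p under 0.05 there were 12 members, 0 of them with a positive difference. How many of all tested probes passed that unadjusted threshold was not counted, so this number is no result about the members. The sign of the difference was negative in 23 members and positive in 6, and over all tested probes in 4683 and 4371. The median log2 difference was -0.12 over the members and -0.01 over all tested probes. With median scaling in place of quantile normalization only Fhl2 (adjusted p = 0.0215) and Lmod2 (0.0398) remained below the threshold, and the split over all probes was then 833 higher and 449 lower instead of 1050 and 931. In alternatives with all 12 arrays the adjusted p of Fhl2 ranged from 2.48e-05 to 0.0215 and that of Lmod2 from 0.009 to 0.04.

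**Figure D1:**
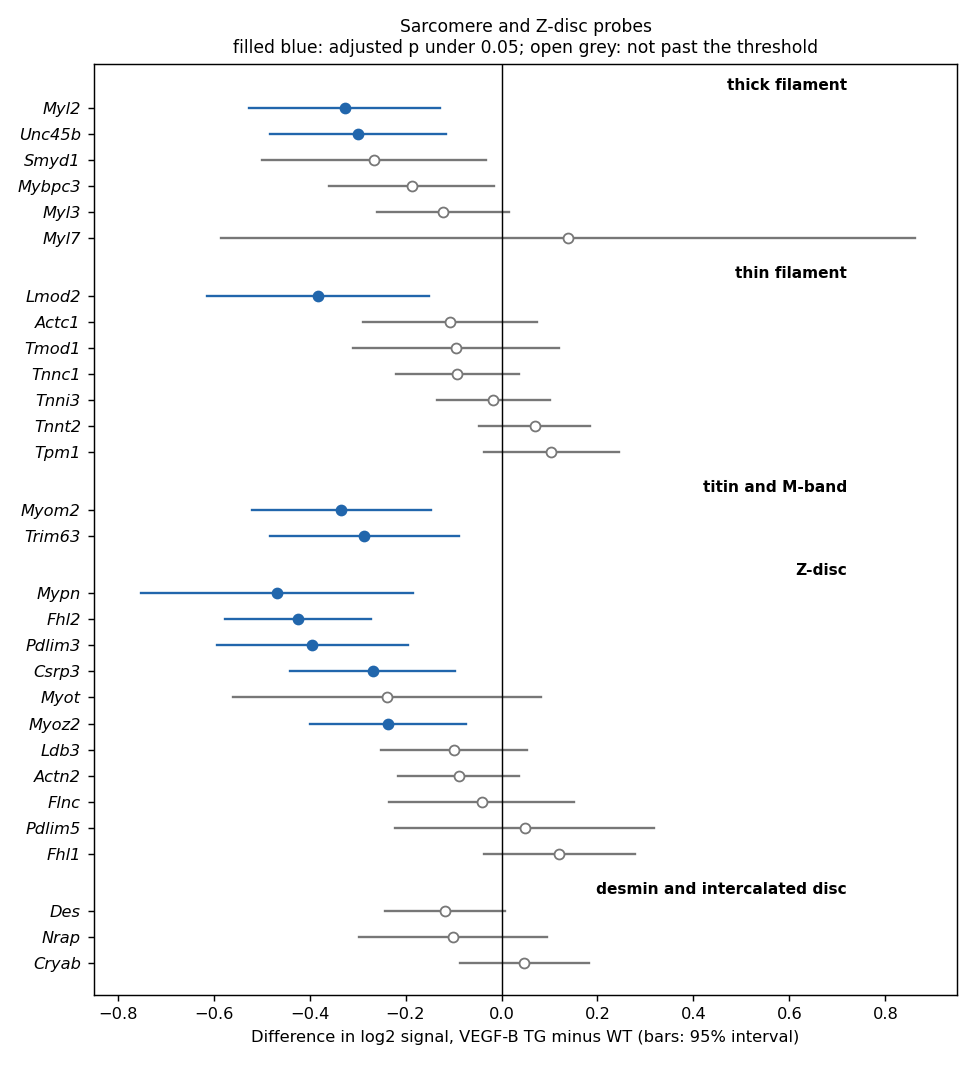
Difference in log2 signal between 6 VEGF-B TG and 6 WT hearts for each of the 29 tested members, grouped by structural class, with 95% intervals as bars. The 10 members with filled blue points passed the adjusted p threshold of 0.05 and all lie left of 0, with Mypn lowest at -0.47, while 19 members shown as open points did not pass.

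By structural class, the lowered members were 2 of 6 thick filament genes (median log2 difference -0.23), 1 of 7 thin filament genes (-0.09), both tested genes of titin and the M-band (-0.31), 5 of 11 Z-disc genes (-0.24) and 0 of 3 genes of desmin and the intercalated disc (-0.10). The classes were not tested against each other, and each count is to be read beside the 10.3% of all probes that were lower. The median of the thin filament genes moved to -0.02 with median scaling and to -0.01 with cyclic loess, and it was -0.02 without TG replicate 4. The median of the Z-disc genes was -0.13 without background correction and also in the deposited log2 table, and it was -0.16 both with median scaling and without TG replicate 6.

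Among the thick filament genes, Myl2, which encodes the regulatory light chain of ventricular myosin (ILMN_1350721), had log2 signals from 9.32 to 9.69 in TG hearts (median 9.53) and from 9.59 to 10.14 in WT hearts (median 9.88). All but 1 of the TG hearts lay below the lowest WT heart, replicate 3. The log2 difference was -0.33 (SE 0.09, limma adjusted p = 0.0218). This probe read only 5.33 to 8.76 times the background, beside 157 to 207 times for the ventricular light chain gene Myl3. How well it reads the main Myl2 transcript was not tested. Unc45b, a chaperone that folds the myosin motor domain (ILMN_2039906), ranged from 7.23 to 7.65 in TG (median 7.43) and from 7.60 to 7.88 in WT hearts (median 7.70), and 5 TG hearts were below every WT heart. Its difference was -0.30 (SE 0.09, adjusted p = 0.0225). The call of Unc45b was lost with median scaling (adjusted p = 0.12), without TG replicate 5 (0.0531), TG replicate 6 (0.0509) or WT replicate 6 (0.0507), over a range of 0.0122 to 0.12 in all alternatives, and that of Myl2, at the threshold of 0.05, only with median scaling (0.0707, in a range of 0.0101 to 0.0707).

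The other members of the thick filament did not pass. Smyd1, a muscle methyltransferase needed for myofibril assembly in zebrafish, had a difference of -0.27 (adjusted p = 0.099), with TG replicate 6 lowest at 12.64. For Mybpc3, cardiac myosin-binding protein C, 4 TG hearts lay below every WT heart and the difference was -0.19 (adjusted p = 0.115, in a range of 0.0482 with trend and robust variances to 0.402). Myl3, the essential light chain of the ventricle, differed by -0.12 (95% interval -0.26 to 0.02). Myl7, the regulatory light chain of the atrium (ILMN_1352095), spread widely in both genotypes, from 6.48 to 8.39 in TG (median 7.35) and from 6.31 to 8.12 in WT hearts (median 7.36). Its probe was dim, at 1.46 to 3.38 times the background. The highest values were those of TG replicate 6 and WT replicate 1 and the lowest that of WT replicate 5. Nppa, the atrial natriuretic peptide gene, was highest and lowest on the same arrays, at 13.05, 12.81 and 9.66. The other tested atrial markers followed only in part. Nr2f2 was highest in TG replicate 6 (7.93) and lowest in WT replicate 5 (7.04). Clu and Dkk3 were highest in WT replicate 1 (13.98 and 7.43) but lowest in TG hearts, and Bmp10 was highest in WT replicate 6 (6.53). The difference in Myl7 was 0.14 (SE 0.34, adjusted p = 0.811), and its sign turned when TG replicate 6 was left out (-0.08), as it did for WT replicate 3 (-0.0005) and for WT replicate 5 (-0.04).

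The atrial and ventricular regulatory light chains were also set against each other within each array, as the log2 signal of Myl7 minus that of Myl2, a measure that is compared between hearts and says nothing of the relative amounts of the transcripts. This measure was -2.19 ± 0.71 in TG and -2.66 ± 0.64 in WT hearts (SD, n = 6 each), a difference of 0.46 with a 2-sided exact permutation p of 0.253. Of the 4 pairs of members that had been chosen for this measure it was the only one with both probes tested, and 0.00216 is the smallest p that 6 against 6 hearts allow. The probe of Myl7 in this pair was dim.

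On the thin filament, Lmod2, encoding a leiomodin that nucleates actin and lengthens thin filaments (ILMN_1367744), was between 10.52 and 10.94 in TG (median 10.64) and between 10.78 and 11.32 in WT hearts (median 11.08). In 4 TG hearts the signal was below that of every WT heart, and WT replicates 5 and 6 reached into the TG range. The log2 difference was -0.38 (SE 0.11, limma adjusted p = 0.0209), and the adjusted p was 0.0507 without WT replicate 1 and likewise without WT replicate 4, the highest over its alternatives (lowest 0.009). Tmod1, which caps the pointed end of the same filament, differed by only -0.09 (adjusted p = 0.547). The 95% intervals of Tnnt2 (-0.05 to 0.18), Tnnc1 (-0.22 to 0.04) and Tnni3 (-0.14 to 0.10), the subunits of troponin, all spanned 0. The difference in Tnni3 was -0.02 and changed sign to 0.01 with median scaling and 0.03 with cyclic loess. Tpm1, the main tropomyosin of the heart, was above the WT mean in all 6 TG hearts, but by only 0.10 (adjusted p = 0.287). Actc1, cardiac α-actin, was read by a dim probe, at 2.37 to 2.68 times the background although actin is a major muscle protein, and it differed by -0.11 (adjusted p = 0.403).

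Both tested members of the M-band and of titin's partners were lower. Myom2, also called M-protein, which bridges thick filaments at the M-band (ILMN_1349664), had log2 signals of 12.46 to 12.94 in TG hearts (median 12.77) and 12.91 to 13.30 in WT hearts (median 13.07). Only TG replicate 3 overlapped the WT range, and TG replicate 6 was lowest. The difference was -0.33 (SE 0.09, limma adjusted p = 0.0134). Trim63, the ubiquitin ligase MuRF1, which binds titin at the M-band and marks sarcomere proteins for degradation (ILMN_1372830), lay between 9.70 and 10.05 in TG (median 9.95) and between 9.91 and 10.42 in WT hearts (median 10.25). Here the groups overlapped more, since WT replicates 1 and 2 lay among the TG hearts. Its difference of -0.29 (SE 0.09, adjusted p = 0.0389) did not hold in all settings. Among those that ended the call, the adjusted p was 0.172 with median scaling, 0.0632 with no filter on dim probes and 0.0814, 0.0561, 0.0784, 0.064, 0.0874, 0.0757 and 0.0771 without TG replicates 4, 5 and 6 and WT replicates 3, 4, 5 and 6, against a lowest value of 0.0161 over the alternatives. At the threshold of 0.05 Myom2 lost its call only with median scaling (0.0795, lowest 0.00313).

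The Z-disc held the lowered member with the smallest p. Fhl2 encodes a LIM-only protein that binds titin and couples the sarcomere to signalling and transcription (ILMN_1372988). Its log2 signal was 13.55 to 13.81 in TG hearts (median 13.73) and 13.97 to 14.23 in WT hearts (median 14.13). The genotypes did not overlap, which among the members held for Fhl2 alone, whereas 5.06% of all tested probes were lower in TG hearts without overlap. The log2 difference was -0.42 (95% interval -0.58 to -0.27, SE 0.07, limma adjusted p = 7.41e-04), so that it fell by 25.5%, and it was the 1 call of the 10 that was kept in every alternative. Its close relative Fhl1, another LIM-only protein of the sarcomere, went the other way by 0.12 (95% interval -0.04 to 0.28, adjusted p = 0.268), with 4 TG hearts above and 1 below every WT heart.

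Pdlim3 and Csrp3, further LIM protein genes of the Z-disc, were lower as well, and Pdlim5 and Ldb3 did not pass. Pdlim3, the actinin-associated LIM protein (ILMN_1352755), was 9.94 to 10.33 in TG (median 10.18) and 10.24 to 10.80 in WT hearts (median 10.57). The overlap came from WT replicate 6, which at 10.24 lay within the TG hearts, while the other WT hearts were above all of them. The difference was -0.39 (SE 0.09, limma adjusted p = 0.00748). Csrp3, the muscle LIM protein known from inherited cardiomyopathy (ILMN_1367043), ranged from 11.95 to 12.29 in TG (median 12.11) and from 12.17 to 12.54 in WT hearts (median 12.45), and all TG hearts but replicate 1 were below every WT heart. It was lower by -0.27 on the log2 scale (SE 0.08, adjusted p = 0.0278). Pdlim5, a relative of Pdlim3 that tethers protein kinase C, differed by 0.05 (adjusted p = 0.825), and its sign turned without TG replicate 1 (-0.02) or TG replicate 6 (-0.01). Ldb3, which binds α-actinin through its PDZ domain, differed by -0.10 (adjusted p = 0.353). Pdlim3 lost its call only with median scaling (adjusted p = 0.0815, lowest 0.0021), and it also passed at a threshold of 0.01. Csrp3 lost it with median scaling (0.074) and without TG replicates 2, 3 and 5 and WT replicates 1, 4 and 6 (0.0519, 0.0572, 0.0512, 0.0634, 0.0611 and 0.0581, with a lowest value of 0.00837 over the alternatives).

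Of the structural and calcineurin-binding Z-disc proteins, Mypn and Myoz2 were lower. Mypn encodes myopalladin, which links α-actinin to nebulin family proteins (ILMN_1363565), and its log2 signal was 7.33 to 8.21 in TG (median 7.99) and 8.08 to 8.56 in WT hearts (median 8.41). TG replicate 6 stood below the other TG hearts, and WT replicate 6 was the lowest of its group. The difference was -0.47 (SE 0.13, limma adjusted p = 0.0206), and it was -0.35 without TG replicate 6. The Mypn probe was dim, at 2.09 to 3.6 times the background. Over the alternatives with all 12 arrays its difference lay between -0.47 and -0.31. Myoz2, a calsarcin that holds calcineurin at the Z-disc (ILMN_1358557), was 14.21 to 14.52 in TG (median 14.48) and 14.51 to 14.82 in WT hearts (median 14.67), with 4 TG hearts below every WT heart. Its difference was -0.24 (SE 0.08, adjusted p = 0.0372). At the threshold of 0.05 the call in Mypn was lost only with median scaling (0.0714, lowest 0.00807). The call in Myoz2 was lost with median scaling (0.303) and cyclic loess (0.101) and without TG replicates 5 and 6 and WT replicates 1, 2 and 5 (0.0677, 0.0787, 0.0819, 0.0755 and 0.0685), over a range that began at 0.00753.

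The remaining Z-disc members did not pass. Myot, encoding the actin-bundling protein myotilin, had a difference of the same size as Myoz2 but a wider spread (-0.24, SE 0.15, adjusted p = 0.285). Actn2, the α-actinin of the cardiac Z-disc, differed by -0.09 (adjusted p = 0.304), and Flnc, the muscle filamin, by -0.04 (adjusted p = 0.786), with a sign that turned to 0.02 without WT replicate 1. In Des, which encodes the intermediate filament desmin (ILMN_1367505), 5 TG hearts between 14.42 and 14.46 lay below the lowest WT heart at 14.51, and TG replicate 1 at 14.62 was within the WT range of 14.51 to 14.64 (median 14.60). The resulting difference of -0.12 (SE 0.06) did not pass the limma test (adjusted p = 0.171), and without TG replicate 1 it was -0.15 (adjusted p = 0.0819, in a range of 0.0601 to 0.61). Nrap, an anchor of thin filaments at the intercalated disc, differed by -0.10 (adjusted p = 0.469), and Cryab, the small heat shock protein that protects desmin, by 0.05 (adjusted p = 0.638).

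**Figure D2:**
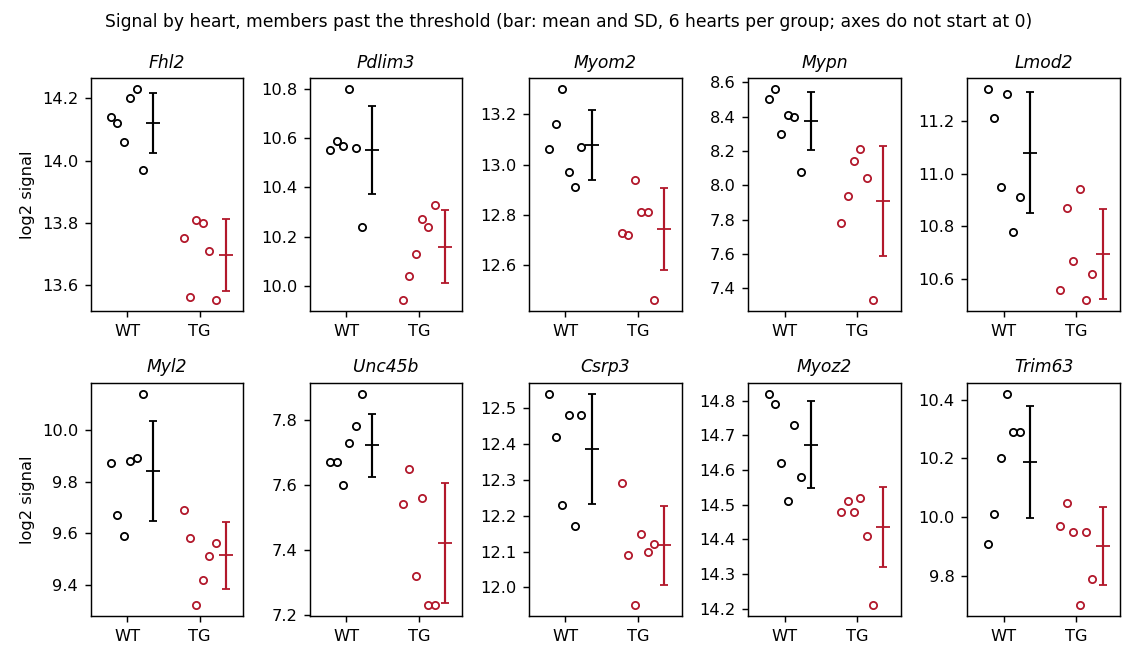
Log2 signal of each heart for the 10 members that passed the threshold, WT in black and VEGF-B TG in red, with the mean and SD of 6 hearts as bars and axes that do not start at 0. In Fhl2 every TG heart is below every WT heart, whereas in the other 9 members at least 1 heart lies in the range of the other genotype.

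Members at the top of the intensity range had small differences. Of the 9 members with a mean intensity of at least 20000 over the 12 arrays, Myl3, Tnnt2, Tnni3, Tnnc1, Tpm1, Actn2, Des, Cryab and Myoz2, only Myoz2 passed the threshold, with a difference of -0.24, while 9 of the other 20 members passed. The same division of all tested probes, chosen after the values were seen, gave 6 calls in 72 bright probes (8.33%, 4 higher and 2 lower) and 22% in the other 8982. The highest intensity on any array was 37843, and whether the signal of such bright probes is compressed was not tested.

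Hearts of the same genotype differed in how far their members lay from the WT mean. The median deviation over the 29 members was between -0.21 (TG replicate 6) and -0.07 (TG replicate 1) in the TG hearts and between -0.04 and 0.05 in the WT hearts. TG replicate 6 had the lowest value of its group in 13 members, and TG replicate 1 had the highest in 10. Within the groups the SD pooled over both genotypes ranged from 0.05 to 0.70 on the log2 scale, with a median of 0.14 and Myl7 at the upper end.

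**Figure D3:**
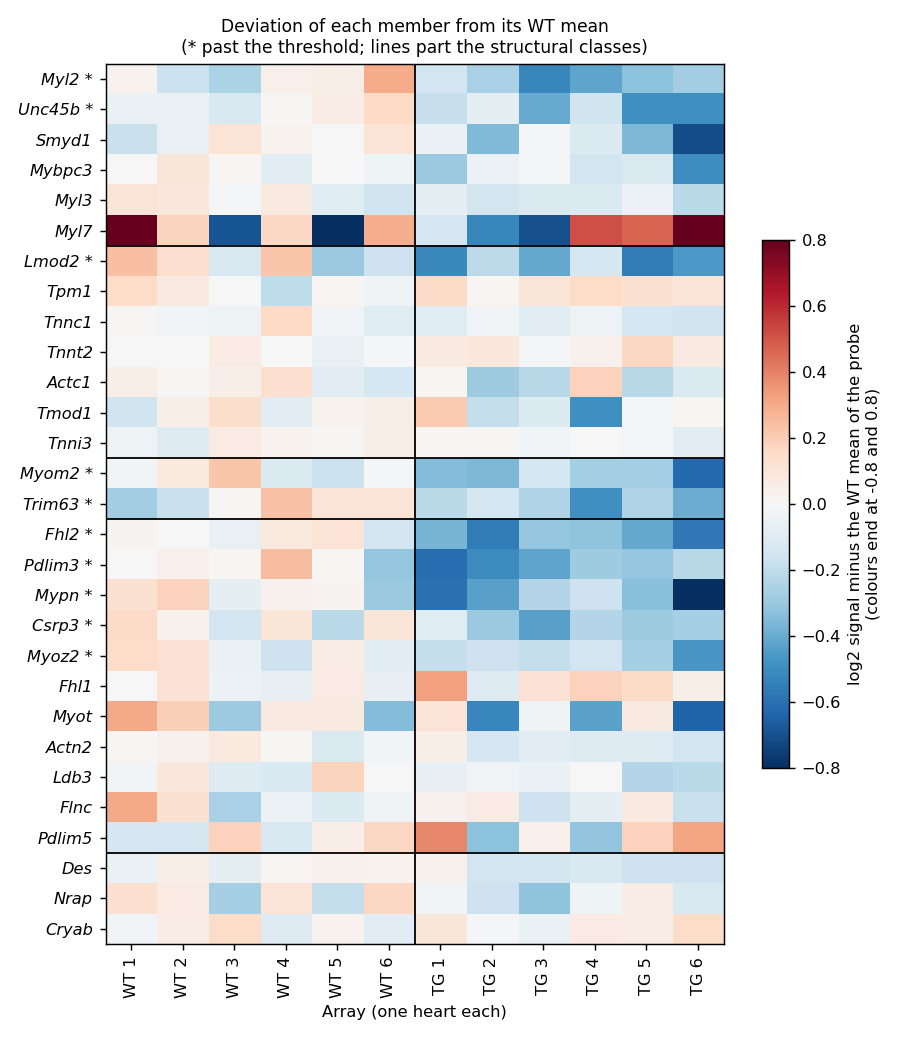
Deviation of the log2 signal of each member from its WT mean (colour, limits at -0.8 and 0.8) for the 6 WT and 6 VEGF-B TG arrays, with the members in rows by structural class and an asterisk on those past the threshold. TG replicate 6 is the lowest of its group in 13 members, such as Mypn and Myom2, and the row of Myl7 varies within both genotypes.

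To show what the proximal promoters of the members hold, the window from 250 bases before to 50 bases after the RefSeq start (GRCr8) was searched on both strands for 5 motifs known from cardiac genes. A window was given for 21 of the 29 tested members, and none for Myl2, Tnnc1, Myom2, Pdlim3, Csrp3, Myot, Nrap and Cryab. The motifs were the CArG box of serum response factor, the MEF2 site, the M-CAT element CATTCC of TEAD factors, the GATA site AGATAA and the TATA box TATAAA, which can overlap a MEF2 site. CArG boxes were found in 5 of 21 member windows (23.8%) and in 1.64% of 33469 promoters, MEF2 sites in 3 (14.3%) and 3.29%, CATTCC in 7 (33.3%) and 14.2%, AGATAA in 3 (14.3%) and 11.6%, and TATAAA in 5 (23.8%) and 14.2%. The 6 lowered members with a window held a CArG box in 1, a MEF2 site in 2, CATTCC in 3, AGATAA in 1 and TATAAA in 3 cases, and the 15 members that did not pass held them in 4, 1, 4, 2 and 2 cases. No test was made of these counts, and a match is a stretch of letters in the reference genome, not a binding site measured in these Wistar hearts.

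The windows of Fhl2 and of its relative Fhl1 are printed because the genes belong to 1 family and had differences of opposite sign (-0.42 and 0.12). Capitals mark motif matches. Fhl2 lies on the minus strand at chr9:52954491-52954790 and holds all 5 motifs, the CArG box from -95 to -86, AGATAA on the opposite strand from -61 to -56, CATTCC from -36 to -31 and, directly behind it, the MEF2 site from -30 to -21, within which TATAAA is read on the opposite strand from -27 to -22. Fhl1 lies on the plus strand at chrX:139638246-139638545 and holds a CArG box from -102 to -93 and TATAAA on the opposite strand from -156 to -151.
Fhl2: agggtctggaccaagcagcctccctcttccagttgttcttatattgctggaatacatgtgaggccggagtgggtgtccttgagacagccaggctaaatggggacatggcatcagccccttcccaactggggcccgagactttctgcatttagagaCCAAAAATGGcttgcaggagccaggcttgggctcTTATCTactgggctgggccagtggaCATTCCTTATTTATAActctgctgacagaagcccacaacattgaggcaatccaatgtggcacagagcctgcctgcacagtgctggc
Fhl1: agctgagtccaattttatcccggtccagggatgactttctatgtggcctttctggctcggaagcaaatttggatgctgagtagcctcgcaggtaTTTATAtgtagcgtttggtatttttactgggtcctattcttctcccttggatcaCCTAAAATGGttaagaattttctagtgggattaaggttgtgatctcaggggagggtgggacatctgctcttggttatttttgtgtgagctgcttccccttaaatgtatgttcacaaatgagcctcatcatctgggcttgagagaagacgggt

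The other lowered members with a match in the window were Myoz2, Mypn and Trim63, and they are shown beside Tnnt2, a bright troponin gene that did not pass (log2 difference 0.07). Myoz2 (minus strand, chr2:213852729-213853028) holds a MEF2 site from -53 to -44, Mypn (plus strand, chr20:25435304-25435603) holds CATTCC from -49 to -44 and TATAAA from -27 to -22, both on the opposite strand, and Trim63 (plus strand, chr5:151816986-151817285) holds CATTCC on the opposite strand from -91 to -86 and TATAAA from -42 to -37. Tnnt2 (plus strand, chr13:49818873-49819172) holds AGATAA on the opposite strand from -220 to -215 and CATTCC from -83 to -78. Lmod2 and Unc45b, also lower, had no match to the 5 motifs in this window.
Myoz2: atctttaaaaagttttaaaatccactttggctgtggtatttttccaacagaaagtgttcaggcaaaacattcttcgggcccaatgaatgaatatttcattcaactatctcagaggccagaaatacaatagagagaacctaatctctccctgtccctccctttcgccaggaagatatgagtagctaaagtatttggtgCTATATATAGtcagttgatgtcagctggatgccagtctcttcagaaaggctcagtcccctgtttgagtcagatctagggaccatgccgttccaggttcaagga
Mypn: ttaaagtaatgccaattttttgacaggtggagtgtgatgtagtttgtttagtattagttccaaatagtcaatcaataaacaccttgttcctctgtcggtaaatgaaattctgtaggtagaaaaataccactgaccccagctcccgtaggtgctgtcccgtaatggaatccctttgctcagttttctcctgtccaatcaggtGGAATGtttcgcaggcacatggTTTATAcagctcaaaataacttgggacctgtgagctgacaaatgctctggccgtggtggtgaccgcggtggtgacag
Trim63: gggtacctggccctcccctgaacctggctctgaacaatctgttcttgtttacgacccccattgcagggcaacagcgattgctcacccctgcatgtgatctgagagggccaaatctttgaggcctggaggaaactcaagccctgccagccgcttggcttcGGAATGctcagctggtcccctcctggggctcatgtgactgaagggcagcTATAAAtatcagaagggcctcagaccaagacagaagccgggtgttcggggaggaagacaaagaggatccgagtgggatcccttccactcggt
Tnnt2: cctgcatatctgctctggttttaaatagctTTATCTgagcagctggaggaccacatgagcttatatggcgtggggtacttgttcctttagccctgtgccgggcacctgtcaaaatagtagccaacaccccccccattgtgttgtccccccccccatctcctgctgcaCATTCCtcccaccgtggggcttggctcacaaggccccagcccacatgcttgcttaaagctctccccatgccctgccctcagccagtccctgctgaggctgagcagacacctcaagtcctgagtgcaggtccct

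**Figure D4:**
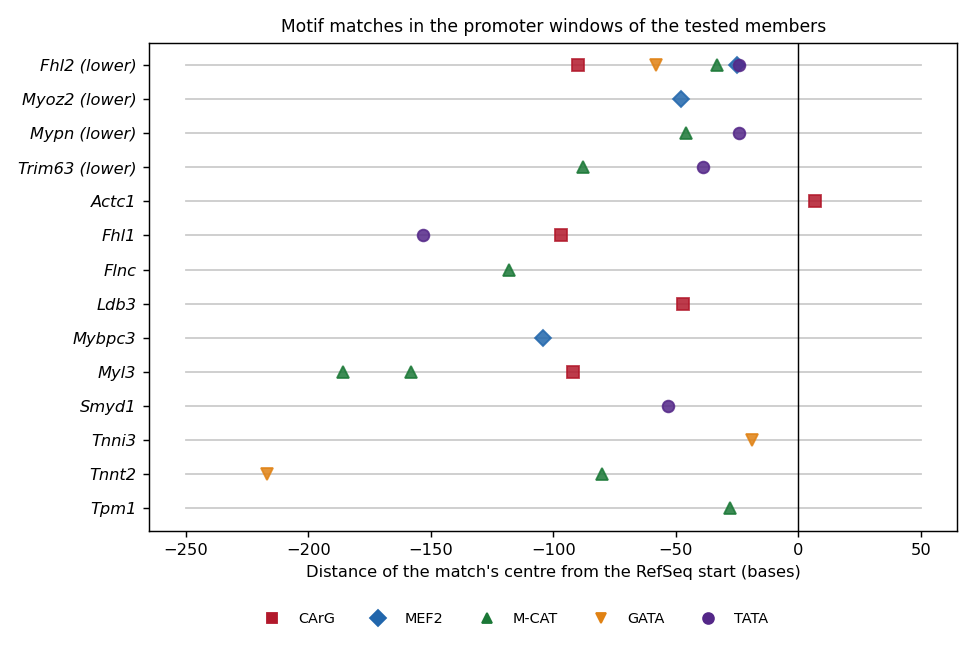
Position of each motif match (centre, in bases from the RefSeq start) in the promoter windows of the 14 tested members that hold at least 1 match, with lowered members marked at the left. Fhl2 is the only window of these with all 5 motifs, and the matches of the 4 lowered members lie between -95 and -21.

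The rest of the sarcomere was read from a list of 67 further genes, of which 43 were tested with 46 probes. In TG hearts 4 of these probes were higher and 12 lower, with a median log2 difference of -0.17, and with median scaling 4 were higher and 7 lower. Over all tested probes 11.6% were higher and 10.3% lower. The 4 higher probes included tropomyosins that are not the main form of the heart. Tpm3, the slow skeletal and cytoskeletal tropomyosin gene, was 9.78 to 9.95 in TG and 8.93 to 9.43 in WT hearts, and Tpm4, a cytoskeletal tropomyosin gene, had medians of 11.07 in TG and 10.43 in WT hearts. Neither gene had overlapping genotypes, which held in either direction for 10.8% of all tested probes. Their differences were 0.61 (SE 0.09, limma adjusted p = 2.46e-04) and 0.77 (SE 0.12, adjusted p = 3.96e-04), beside 0.10 for Tpm1. Tropomyosin genes such as Tpm3 and Tpm4 are also transcribed in cells other than cardiomyocytes.

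Hspb3, a small heat shock protein gene of muscle, had a median of 10.38 in TG hearts (highest 10.88) and 11.09 in WT hearts, without overlap (log2 difference -0.70, SE 0.11, limma adjusted p = 4.46e-04). Sync, which encodes the desmin-associated protein syncoilin, fell by 0.51 on the log2 scale (SE 0.11, adjusted p = 0.00424). Its probe was dim, at 1.89 to 2.86 times the background. Ilk, integrin-linked kinase of the costamere, was 0.30 higher on 1 probe (SE 0.06, adjusted p = 0.00187), while its other 2 probes gave 0.22 (adjusted p = 0.085) and 0.13 (adjusted p = 0.168). The remaining higher probe, named after its value was seen, was that of Pdlim7, a LIM protein gene related to Ldb3, at 0.47 (SE 0.14, adjusted p = 0.0238). Its adjusted p was 0.0515 with no filter on dim probes, 0.0524 without TG replicate 5 and 0.056 without WT replicate 4, against a lowest value of 0.00884 over the alternatives.

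Other muscle genes of ubiquitin ligases or their subunits, which apart from Fbxo32 were named after their values were seen and for which no list was set up, are given beside Trim63. Trim55 and Trim54, the MuRF relatives of Trim63 at the sarcomere, had log2 differences of -0.34 (SE 0.08, limma adjusted p = 0.00633) and -0.47 (SE 0.12, adjusted p = 0.0108), each with some overlap of the genotypes. Fbxo32, the muscle ubiquitin ligase subunit atrogin, was 7.10 to 7.44 in TG and 7.5 to 8.08 in WT hearts, which did not overlap, and it differed by -0.49 (SE 0.10, adjusted p = 0.00381). Its probe was dim, at 1.81 to 2.83 times the background. Asb2, a substrate-binding subunit of a muscle ubiquitin ligase, did not pass (-0.22, SE 0.10, adjusted p = 0.125). With median scaling the adjusted p was 0.124 for Trim55 (lowest over its alternatives 0.00305), 0.0296 for Trim54 (lowest 0.00362) and 0.0461 for Fbxo32 (lowest 0.00194).

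**Figure D5:**
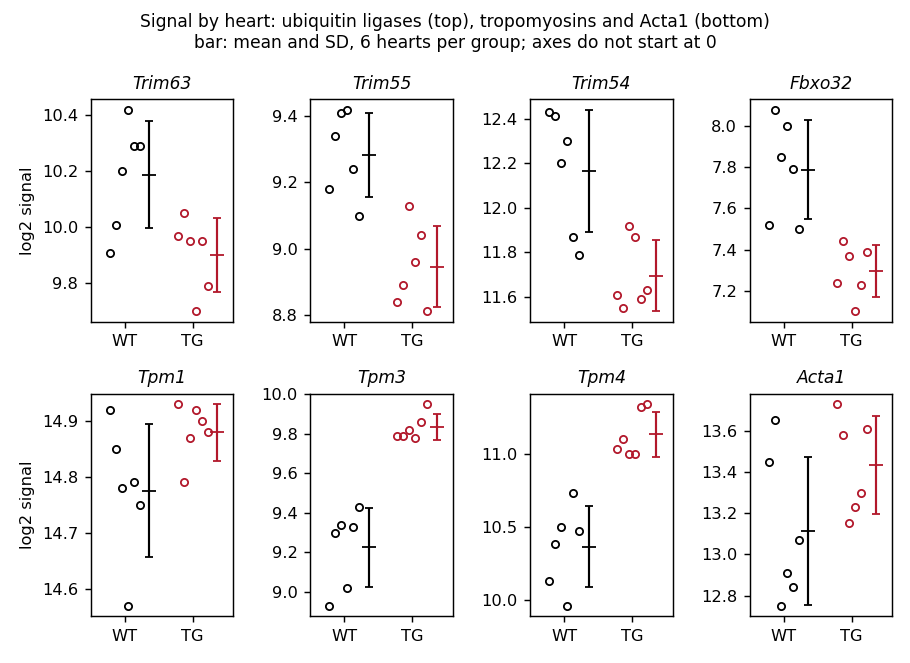
Log2 signal of each heart for the ubiquitin ligase genes Trim63, Trim55, Trim54 and Fbxo32 (top) and for Tpm1, Tpm3, Tpm4 and Acta1 (bottom), with the mean and SD of 6 hearts per genotype and axes that do not start at 0. The ligase means are lower in the TG hearts, and in Tpm3 and Tpm4 all TG hearts lie above all WT hearts.

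The myosin heavy chain genes Myh6 and Myh7 and the skeletal actin gene Acta1, also named after their values were seen, did not pass the threshold. A further heavy chain gene, Myh7b, likewise named afterwards, was lower (log2 difference -0.36, SE 0.11, limma adjusted p = 0.0299). The adjusted p of Myh7b ranged from 0.00544 to 0.0742 over the alternatives. Myh6, whose promoter drives the transgene, differed by 0.07 (adjusted p = 0.413) and Myh7 by 0.19 (adjusted p = 0.357), 2 genes similar enough in sequence that binding of each other's transcript was not tested. Acta1, the skeletal actin gene expressed in the foetal and loaded heart, was 13.15 to 13.73 in TG and 12.75 to 13.65 in WT hearts (log2 difference 0.32, SE 0.15, limma adjusted p = 0.156).

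Markers of the cells in the sample were read beside these results, since in whole-tissue RNA fewer cells of a type and less RNA per cell cannot be told apart. Their counts are to be read beside the 11.6% of all tested probes that were higher and the 10.3% that were lower. Of 21 probes for other cardiomyocyte genes, 1 of which (Hspb7) was also on the list of further sarcomere genes, 8 were lower and 0 higher, with a median log2 difference of -0.19. Without Hspb7 they were 7 of 20, with a median of -0.15, beside -0.12 for the sarcomere members. Their mean level without it was 11.03 to 11.23 in TG and 11.26 to 11.41 in WT hearts. Among them Hrc and Trdn, genes of calcium release in the sarcoplasmic reticulum, differed by -0.47 and -0.65 (limma adjusted p = 0.00119 and 0.0033). The Trdn probe was dim, at 1.29 to 1.99 times the background. Of all 21 probes 16 had a negative and 5 a positive difference. Those that did not pass lay between -0.52 (Corin) and 0.08 (Atp2a2). Of 16 probes for endothelial markers 9 were higher and 0 lower, with a median of 0.53 and a mean level of 9.01 to 9.22 in TG and 8.57 to 8.8 in WT hearts. The vessel genes Emcn and Tie1 rose by 0.65 each (adjusted p = 1.96e-05 and 2.53e-05), the second probe of Tie1 by 0.49, and the 7 probes that did not pass lay between -0.24 (Cldn5) and 0.29 (Gpihbp1). Smooth muscle markers, of which 6 of 12 genes were tested, gave 4 lower probes (median -0.36, level 9.13 to 9.35 in TG and 9.38 to 9.63 in WT hearts). Mustn1 differed by -0.58, Actg2 by -0.66 and, named after their values were seen, Tagln by -0.49 and Synpo2 by -0.22. Aoc3 (0.16, limma adjusted p = 0.0797) and Smtn (-0.01) did not pass.

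In 12 probes for fibroblast genes 1 was lower, that of Pdgfra (-0.44, limma adjusted p = 0.0201), the median was 0.06, and the level was 10.38 to 10.69 in TG and 10.3 to 10.61 in WT hearts. Skeletal muscle markers, of which 7 of 17 genes were tested, all 7 also on the list of further sarcomere genes, gave 0 calls in either direction (median -0.04, level 7.55 to 7.85 in TG and 7.47 to 7.92 in WT hearts). Of 5 atrial marker probes Dkk3 and Clu were lower (-0.41 and -0.24). Nppa (0.70), Nr2f2 (0.31) and Bmp10 (0.065) had positive differences that did not pass. The median of the atrial markers was 0.065, with a level of 9.04 to 9.53 in TG and 8.68 to 9.52 in WT hearts. The part of these cell type markers in the differences of the sarcomere genes was not tested.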

How the data were processed

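RNA of 12 left ventricles was hybridized to Illumina RatRef-12 BeadChips, 1 array per rat, and groups came from the sample titles. The deposited table gave bead intensity per probe as the authors summarized it with GenomeStudio, not normalized, and the deposited detection p-value of each probe. A further deposited table had the authors' log2 values, quantile normalized with Chipster, and it differed by at most 0.00883 from quantile log2 values computed here. Software versions, and which animals shared a litter, are not given in the sources used here.

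Intensities were background corrected (neqc of limma 3.58.1 in R 4.3.3, background from detection p, offset 16), quantile normalized and log2 transformed. Probes with detection p under 0.05 on at least 6 of 12 arrays were kept (9054 of 22517). Differences are VEGF-B TG minus WT from lmFit and eBayes, with Benjamini-Hochberg adjustment over all kept probes and a threshold of 0.05. One paired measure was tested over the 924 assignments of arrays to groups. The fit was tested on simulated data. Figures were drawn with matplotlib 3.10.9.

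Of the probes, 13787 had 1 symbol in the platform annotation and 8730 had none. Through gene numbers 13747 symbols were updated to GRCr8, and 40 were kept. Cavin4, the current symbol of Murc, had a probe that was detected on 0 arrays and was not counted. Each member rested on 1 tested probe, and sequence differences under a probe in these outbred rats were not tested. Promoter windows came from RefSeq (GRCr8).

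The members and all lists were chosen with earlier results of these data known. Heart values are given for the called members with the smallest p, for 1 member of a class without calls and, beyond this rule, for Myl7. Of other sarcomere genes the 6 called probes with the smallest p were to be named, and of each cell type list up to 2 called probes. Any further genes of these lists were named after their values were seen. Alternatives were other normalizations (median scaling, cyclic loess, the deposited log2 table), other background handling (none, or normexp with offset 50), other filters (none, or detection p under 0.01 on all arrays), other fits (trend and robust variances, array weights, a block for replicate number, the mean of a gene's probes), a threshold of 0.01 and each array left out.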

Additional observations from a re-analysis of the deposited data

Results flagged for a closer look

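In 90 groups of 6 hearts, those of the members and of the called probes of other sarcomere genes, 7 had a highest or lowest heart set apart from the other 5 by a gap above Dixon's critical value for 6 values, where chance flags about 1 group in 20. Among TG hearts, replicate 6 was lowest in Tnni3 at 14.52 (others 14.59 to 14.63), in Myoz2 at 14.21 (others 14.41 to 14.52) and in Klhl41, an adaptor of a ubiquitin ligase of the sarcomere, at 6.9 (others 7.21 to 7.39). TG replicate 1 was highest in Actn2 at 14.66 (others 14.46 to 14.52) and in Des at 14.62 (others 14.42 to 14.46). Among WT hearts, replicate 6 was lowest in Klhl41 at 7.29 (others 7.54 to 7.64), and replicate 5 was lowest in Myh7b at 8.77 (others 9.17 to 9.38). All are log2 signals.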

How the results depend on the processing

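The number of lower members was 10, and it fell to 2 with median scaling (Fhl2 and Lmod2) and to 2 at a threshold of 0.01 (Fhl2 and Pdlim3). It was between 2 and 11 over the alternatives with all arrays and between 6 and 10 when single arrays were left out, with 6 without TG replicate 5. The number of higher members was 0 in each of these. Lower probes among the other sarcomere genes numbered 12, 7 with median scaling and 9 to 16 with single arrays left out. The thin filament median (-0.09) was -0.0206 with median scaling, -0.0079 with cyclic loess and -0.0914 to -0.0198 with single arrays left out. The Z-disc median (-0.24) was -0.13 without background correction, -0.13 in the deposited log2 table, -0.16 with median scaling and -0.25 to -0.16 with single arrays left out. Signs turned in Tnni3 with median scaling (0.0073) and cyclic loess (0.026), and with single arrays left out in Myl7 (-0.075 to 0.3263), Flnc (-0.0925 to 0.0192) and Pdlim5 (-0.0208 to 0.1219). The cause was not tested. Of the 10 called members 0 changed sign in any alternative, and 1 of the 19 others passed in 1 (Mybpc3). The difference of Myl7 minus Myl2 stayed between 0.26 and 0.65, with exact permutation p of 0.119 to 0.483.

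The labels do not say that a replicate number marks a shared litter, batch or day. Deviations of same-numbered arrays correlated between -0.145 and 0.227, so that not every pair was above 0.1, and the numbers were not used as pairs, although 6 of 12 arrays correlated best with their own number, which is a hint from the data and not the design. With the replicate block 9 members were lower, without Trim63 (adjusted p = 0.0863, in a range of 0.0161 to 0.172), and 0 were higher. Probes at or below 3 times background, such as those of Actc1, the called member Unc45b and the called genes Fbxo32 and Sync, limit what can be seen.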
